A study of Mus musculus with 15 samples.

Results

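E2 and E1 are clonal populations of 4T1, a mouse mammary carcinoma line, and were compared gene by gene through the 6 of 15 sequenced libraries that belong to them. Members were chosen by the population label, with 3 E2 libraries and 3 E1 libraries, each a biological replicate per the labels. Both clones carry the genotype "iRFP670 expressing": parental 4T1 cells received the plasmid pNLS-iRFP670, and each clone was then grown from 1 isolated cell. The clones were kept under G418 selection, which was withdrawn ahead of RNA isolation, and RNA came from cultures of 72 h at about 80% confluency. The other 9 libraries come from the untransfected parental population, labelled WT, and from clones A and M, made in the same way as E1 and E2, with 3 libraries each. A population name here stands for 1 clone, so the replicate spread describes cultures of that clone and not other clones of the line. The labels do not say whether the replicates were cultured separately or on which days.

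The 4T1 line grows as an epithelial tumour in BALB/c mice and spreads to distant organs, and it is known to hold cells that differ in shape, growth and surface molecules. Daughter populations of single cells can differ in gene expression through inherited differences in the genome or in chromatin. Cell-surface proteoglycans, integrin adaptors and secreted matrix proteins link such cells to their surroundings, and small GTPases and actin-binding proteins set the form of the cell in response.

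The E1 libraries held 20143111 to 33141271 counts and the E2 libraries 20494390 to 30002009. The most abundant identifier, 100861531, has no symbol and accounted for 39.7% to 44.1% of E1 counts and 38.5% to 49.1% of E2 counts, where the highest share was that of replicate 1. Outside the 6 genes with the most counts, 6164768 to 11419324 counts per library remained. Epithelial markers were present in both clones: Epcam lay between 43.0 and 70.9 CPM (counts scaled to the normalised library total) and Cdh1 between 41.0 and 71.1 CPM, and neither they nor Krt8, Krt18, Krt7 and Krt19 were called different. Of the leukocyte markers Cd3e, Itgam and Adgre1 had no count in any library and Ptprc at most 1. The fibroblast markers Dcn, Lum and Thy1 and the endothelial marker Emcn also had no count. The endothelial markers Cdh5, Pecam1 and Tek had at most 2, 6 and 14 counts in any library. Pdgfra lay between 3.15 and 9.45 CPM in E1 and E2 and reached 33.8 CPM over all 15 libraries. Summed over each list, leukocyte markers reached 1.70 to 3.30 CPM in E1 and 1.88 to 1.93 in E2, fibroblast markers 3.34 to 6.37 and 4.42 to 9.69, and endothelial markers 4.18 to 5.02 and 3.53 to 6.04.

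Few genes were called between the clones. Of 12712 genes tested, 30 (0.236%) passed edgeR's quasi-likelihood test (Benjamini-Hochberg adjusted p under 0.05) and are named called genes: 22 (0.173%) were higher in E2 and 8 (0.0629%) lower. A difference of 2-fold or more was fitted for 22 of the called genes (0.173% of those tested). Genes of at least 3 CPM in the higher clone with a large difference included a surface proteoglycan (Gpc4), a secreted matrix protein (Postn) and a focal adhesion protein (Tns1), all higher in E2, and 5 of the 8 lower genes lay on chromosome 14. All 3 libraries of one clone lay above all 3 of the other in each of the 30 called genes. Over all genes tested the same held for 1922 (15.1%), 936 higher in E2 and 986 lower, so such a separation alone was common. An unadjusted p under 0.05 was found for 1124 genes, 612 higher in E2 (4.81% of those tested) and 512 lower (4.03%).

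The count depended on single libraries. It was 17 without E1 replicate 1, 11 without E1 replicate 2, 13 without E1 replicate 3, 38 without E2 replicate 1, 23 without E2 replicate 2 and 9 without E2 replicate 3. The lower calls numbered 4, 0 and 3 without E1 replicates 1, 2 and 3, and 3, 5 and 2 without E2 replicates 1, 2 and 3. With E1 replicate 2 left out, 407 lower genes still had an unadjusted edgeR p under 0.05. DESeq2 called 128 genes from the same counts and filter, 83 higher in E2 (0.653%) and 45 lower (0.354%), and all 30 were among them. None of the 30 changed direction under any of the 16 alternatives computed. With libraries that did not overlap between the clones, this was largely fixed in advance and is no support. Gpc4, Trib2, Chst2, Postn and Marcks kept their call under every alternative. Among these, a changed prior count affects the fold change only and cannot alter a call.

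**Figure D1:**
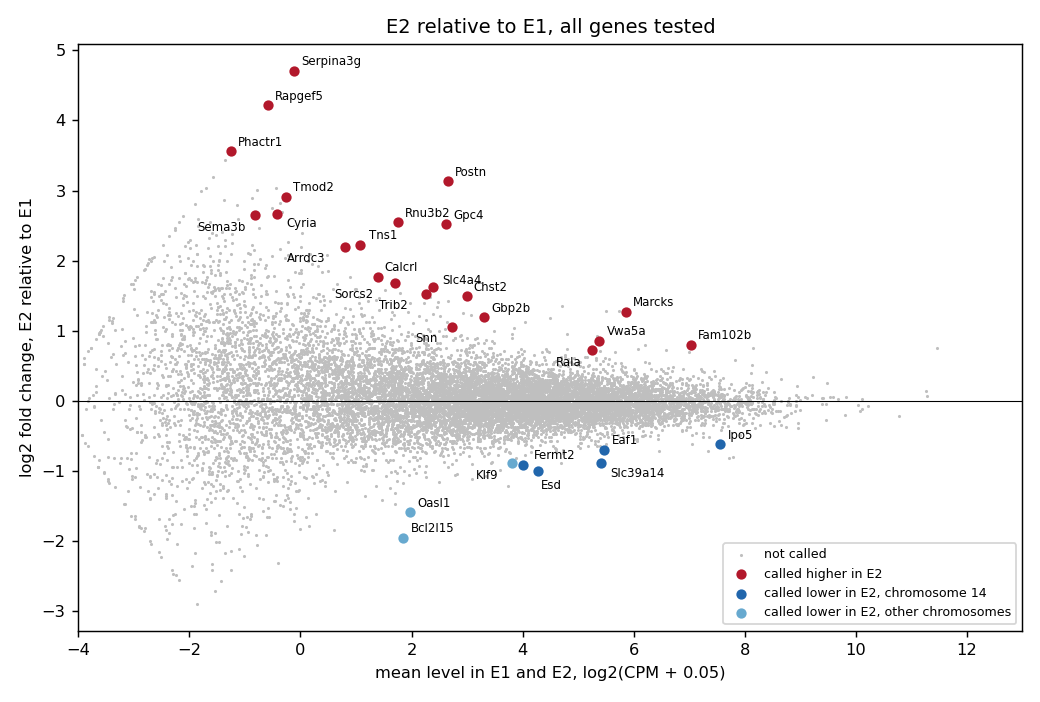
Log2 fold change of E2 relative to E1 (vertical axis) against the mean level of both clones in log2(CPM + 0.05) (horizontal axis) for the 12712 genes tested. Grey points were not called; red points are the 22 genes called higher in E2, and dark and light blue points are the 8 called lower, 5 of them on chromosome 14.

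Among the 10 pairs of the 5 populations, E2 against E1 had the fewest called genes. The next were M against E2 with 445 and M against E1 with 495, and the most, 3814, were called between A and the parental population. The median absolute log2 fold change over all genes tested was 0.214 for E2 against E1 and 0.274 to 0.479 for the other 9 pairs. Pearson's r of log2 CPM across genes, which are not independent replicates, averaged 0.957 between E1 and E2 libraries, 0.963 within E1 and 0.960 within E2. These pairs share libraries, so their counts are given side by side and no difference between them was tested.

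The higher genes are given by what each is known to do, an ordering by hand that was not tested. Gpc4 (chrX:52051007-52164923 in GRCm38; glypican 4, a heparan sulphate proteoglycan anchored to the cell surface) was measured at 2.78, 1.39 and 1.07 CPM in E1 replicates 1 to 3 and at 8.33, 10.3 and 12.7 CPM in E2. The lowest E2 library was well above the highest E1 library, and the log2 fold change was 2.52 ± 0.432 (SE, n = 3 and 3; edgeR adjusted p = 5.47e-06). Other proteoglycans of the surface were not called: Gpc1 averaged 83.7 ± 3.53 CPM in E1 and 80.1 ± 4.64 in E2, Sdc1 20.5 ± 3.25 and 18.1 ± 2.07, and Sdc4 120 ± 9.65 and 109 ± 12.2 (SD, n = 3 each). Those 3 genes were chosen after their values were seen. Chst2 (chr9:95400926-95407270; a Golgi enzyme that adds sulphate to N-acetylglucosamine on glycans) stood at 3.27, 4.55 and 4.51 CPM in E1 and at 14.8, 10.3 and 10.1 in E2. Its log2 fold change was 1.49 ± 0.236 (edgeR adjusted p = 0.00442).

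Postn (chr3:54359267-54391041; periostin, a secreted matrix protein that binds integrins) had 1.66, 0.743 and 1.23 CPM in E1 and 13.6, 11.5 and 8.78 CPM in E2. No library of E1 came near those of E2, and the log2 fold change was 3.13 ± 0.367 (edgeR adjusted p = 0.00451). The level in E2 was also above all other populations, which averaged 0.768 CPM in the parental line, 0.116 in clone A and 0.422 in clone M. Tns1 (chr1:73910232-74124548; tensin 1, which ties integrin tails to actin at focal adhesions) was at 0.363, 0.929 and 0.757 CPM in E1 and at 4.68, 2.30 and 3.31 in E2, a log2 fold change of 2.23 ± 0.466 (edgeR adjusted p = 0.0128). Its call was lost without E1 replicate 1, E1 replicate 3 or E2 replicate 3, with adjusted p up to 0.0799. Gpc4, Chst2 and Postn kept theirs in all 6 such fits, with adjusted p of at most 0.000326, 0.0382 and 0.0477.

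The sequence just upstream of the start site differs in kind between these genes, and that of Chst2 and of Postn is given to show the contrast. Both are the 150 bases before the RefSeq start site (GRCm38.p6), 5′ to 3′ on the gene's strand, outside all GENCODE M21 exons, with matches to the GC box GGGCGG, to TATAAA or to TGANTCA on either strand in capitals. The Chst2 window is chr9:95407271-95407420 on the minus strand, is 78% G or C, has 20 CpG dinucleotides and holds 1 GC box. The Postn window is chr3:54359117-54359266 on the plus strand, is 37.3% G or C, has 2 CpG dinucleotides and none of the 3 motifs.
Chst2: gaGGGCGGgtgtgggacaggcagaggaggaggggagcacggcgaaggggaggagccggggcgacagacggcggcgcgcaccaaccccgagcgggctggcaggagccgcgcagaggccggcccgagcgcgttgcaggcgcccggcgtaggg
Postn: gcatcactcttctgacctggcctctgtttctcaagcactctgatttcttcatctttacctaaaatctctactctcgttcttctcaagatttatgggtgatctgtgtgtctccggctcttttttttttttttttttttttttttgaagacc
The median over all 32851 RefSeq windows was 54% G or C and 4 CpG dinucleotides. A window was at hand for 24 of the 30 called genes. A GC box stood in 10 of 17 windows of higher genes and 3 of 7 of lower genes, against 28.6% of all windows. TATAAA stood in 1 of 17 and 0 of 7, against 7.57%. The shares over all windows were not limited to tested genes, so they are not a like-for-like background. The start site used lay 93402 bases from the 5′ end of the gene for Slc4a4 and 14354 bases for Ipo5. The genes were chosen for display after their values were seen, and a match is a description of letters only.

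Receptors, a secreted guidance factor and a transporter were also higher in E2. Sorcs2 (chromosome 5; a sorting receptor of the VPS10 family that binds pro-neurotrophins) had 1.54, 1.07 and 1.83 CPM in E1 and 4.94, 4.82 and 5.08 in E2, a log2 fold change of 1.68 ± 0.219 (edgeR adjusted p = 0.0128). The 3 E2 values of this gene were close together, with a mean of 4.95 ± 0.129 CPM (SD, n = 3). Calcrl (chromosome 2; the receptor subunit for adrenomedullin and calcitonin gene-related peptide) had 1.45, 0.976 and 0.946 CPM in E1 and 2.34, 6.11 and 3.59 in E2, a wider spread, with a log2 fold change of 1.77 ± 0.436 (edgeR adjusted p = 0.0268). Slc4a4 (chromosome 5; a sodium bicarbonate cotransporter) had 2.60, 1.77 and 3.12 CPM in E1 and 8.69, 7.54 and 7.32 in E2, a log2 fold change of 1.62 ± 0.247 (edgeR adjusted p = 0.0268). Sema3b (chromosome 9; a secreted semaphorin that signals through neuropilins and plexins) rested on 8 counts over the E1 libraries and 77 over E2, that is 0.0605, 0.0929 and 0.126 CPM against 0.937, 0.838 and 1.06. Its log2 fold change was 2.65 ± 0.194 (edgeR adjusted p = 0.0239).

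None of these 4 calls held for every left-out library. Sorcs2 missed the threshold without E1 replicate 1 or 2 or E2 replicate 3 (adjusted p up to 0.117). Sema3b missed it without any one of the E1 replicates or without E2 replicate 3 (up to 0.105), and Calcrl without any one of the E1 replicates or E2 replicate 2 or 3 (up to 0.199). Slc4a4 missed it without any one of the 6 libraries (up to 0.19).

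Among the other higher genes are a pseudokinase, regulators of small GTPases and proteins that bind actin. The actomyosin list as such held none of them: 0 of its 34 tested genes were called by edgeR or DESeq2. At an unadjusted edgeR p under 0.05, 0 were higher and 2 lower, against 4.81% and 4.03% of all genes tested. The median difference of the list was -0.03 on the log2 scale. Trib2 (chr12:15791725-15816962; a pseudokinase that steers C/EBP proteins to degradation) was at 2.00, 2.69 and 2.55 CPM in E1 and 5.98, 7.89 and 7.14 in E2, with a log2 fold change of 1.52 ± 0.173 (edgeR adjusted p = 0.00250). Marcks (chr10:37133243-37138926; a protein kinase C substrate at the plasma membrane that binds actin and phosphoinositides) was at 27.2, 38.6 and 35.9 CPM in E1 and 54.2, 106 and 84.7 in E2. The E2 replicates differed among themselves by more than the E1 replicates, yet all lay above E1, and the log2 fold change was 1.27 ± 0.324 (edgeR adjusted p = 0.00520). Rala (chromosome 13; a small GTPase of exocytosis and membrane traffic) had 29.7, 24.3 and 31.7 CPM in E1 and 42.2, 48.2 and 51.9 in E2, one of the smallest called differences, with a log2 fold change of 0.73 ± 0.143 (edgeR adjusted p = 0.0239). Arrdc3 (chromosome 13; an alpha-arrestin that directs membrane receptors to ubiquitination) had 0.847, 0.139 and 0.631 CPM in E1 and 2.65, 1.92 and 3.95 in E2, a log2 fold change of 2.19 ± 0.719 (edgeR adjusted p = 0.0176).

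Several of these genes were detected barely or not at all in E1. Phactr1 (chromosome 13; a regulator of protein phosphatase 1 and actin) had no count in E1 and 64 over E2, with 0.520, 0.349 and 1.34 CPM, and was at least 21.2-fold higher against a floor of 3 counts over the clone (edgeR adjusted p = 0.00451). Rapgef5 (chromosome 12; an exchange factor for Rap GTPases) had no count in E1 and 91 over E2, with 1.93, 0.838 and 0.912 CPM, at least 35.2-fold higher by the same floor (edgeR adjusted p = 0.0268). Tmod2 (chromosome 9; a tropomodulin, which caps the pointed ends of actin filaments) had 12 counts in E1, all in replicate 1, and 115 over E2, where it was at 1.46, 1.64 and 1.22 CPM (edgeR adjusted p = 0.0333). Cyria (chromosome 12; a Rac1-binding protein that restrains branched actin) had 11 counts over E1 and 99 over E2, at 1.35, 1.22 and 1.15 CPM, a log2 fold change of 2.66 ± 0.534 (edgeR adjusted p = 0.0246). Phactr1, Rapgef5, Tmod2 and Rala fell outside the rule for naming genes and were named after their values were seen.

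Trib2 and Marcks kept their calls without any one library (adjusted p at most 0.0292 and 0.0408), and so did Phactr1 (at most 0.0399), although not in a fit of the 6 libraries of E1 and E2 alone (adjusted p = 0.0769). Arrdc3 missed the threshold without E1 replicate 2 or 3 or E2 replicate 3 (up to 0.108). Rala missed it without any library but E2 replicate 1 (up to 0.197), Rapgef5 without any but E2 replicate 2 (up to 0.169), and Tmod2 without any but E1 replicate 1 (up to 0.197). Cyria missed it when E1 replicate 1, E1 replicate 3, E2 replicate 2 or E2 replicate 3 was left out (up to 0.197).

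The remaining 6 higher genes do not share a known role. Gbp2b (chr3:142594816-142619179; a guanylate-binding protein, an interferon-induced GTPase) had 5.17, 6.09 and 6.62 CPM in E1 and 14.8, 11.9 and 14.6 in E2, a log2 fold change of 1.19 ± 0.145 (edgeR adjusted p = 0.0128). Its close copy and neighbour Gbp2, chosen after its values were seen, had 3.66, 3.39 and 6.18 CPM and 10.5, 11 and 10.6 CPM and was not called (edgeR adjusted p = 0.102). Reads of such copies can be split or lost in counting, so both levels are uncertain. Serpina3g (chromosome 12; a serpin of a family with many near-identical copies, named after its values were seen) had no count in E1 and 146 over E2, with 1.41, 1.54 and 2.28 CPM, at least 50-fold higher by the floor of 3 counts (edgeR adjusted p = 0.0109). Snn (chromosome 16; stannin, a small membrane protein) had 4.54, 4.65 and 3.53 CPM in E1 and 9.68, 9.04 and 7.87 in E2, a log2 fold change of 1.05 ± 0.152 (edgeR adjusted p = 0.0109). Vwa5a (chromosome 9) averaged 29.6 ± 5.34 CPM in E1 and 53.7 ± 6.10 in E2, and Fam102b (chromosome 3) 95.6 ± 1.73 and 166 ± 30.7 (SD, n = 3 each; edgeR adjusted p = 0.0122 and 0.0268).

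Rnu3b2 (chromosome 11), a U3 small nucleolar RNA gene of ribosomal RNA processing, showed a split among E2 libraries. Its level was 1.15, 0.929 and 0.694 CPM in E1 and 1.20, 8.80 and 7.17 in E2, so E2 replicate 1 lay beside E1 while the other two lay far above (edgeR adjusted p = 0.0317). Near-identical U3 genes share its reads, which leaves this value uncertain. Gbp2b missed the threshold without E1 replicate 1 or 2 or E2 replicate 3 (adjusted p up to 0.0949), Vwa5a without the same libraries (up to 0.126), and Snn without E1 replicate 3 (0.104). Serpina3g missed it without any one of the E1 replicates or E2 replicate 3 (up to 0.0718). Fam102b and Rnu3b2 missed it without any library but E2 replicate 1 (up to 0.18 and 0.228).

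**Figure D2:**
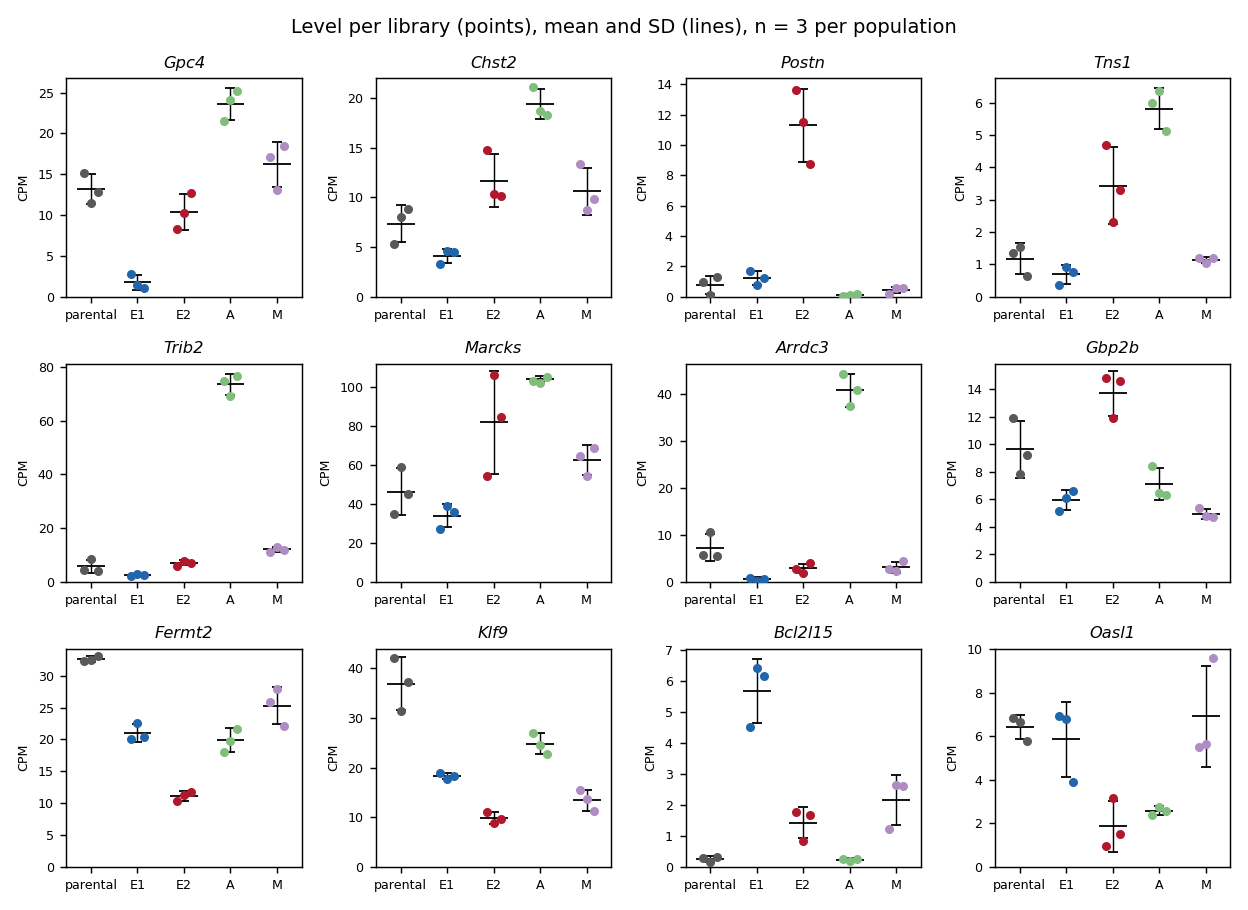
CPM (vertical axes, from 0) of 12 called genes in the 3 libraries of each of the 5 populations, with points for libraries, long bars for means and whiskers for SD. Gpc4 is lowest in E1 (1.07 to 2.78 CPM), Postn is highest in E2 (8.78 to 13.6 CPM), and Fermt2 is lowest in E2 (10.3 to 11.7 CPM).

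Of the 8 genes lower in E2, 5 lie on chromosome 14. Fermt2 (chr14:45458792-45530310; kindlin 2, which helps to activate integrins) had 20, 22.6 and 20.3 CPM in E1 and 10.3, 11.3 and 11.7 in E2, and its log2 fold change was -0.91 ± 0.0784 (edgeR adjusted p = 0.00883). Slc39a14 (chr14:70303467-70351452; a zinc, iron and manganese importer) had 48.1, 56.0 and 61.3 CPM in E1 and 24.7, 28.7 and 36.4 in E2, with -0.88 ± 0.192 (edgeR adjusted p = 0.0128). Eaf1 (chr14:31495079-31509858; a partner of the ELL elongation factors) had 55.3, 51.0 and 58.3 CPM and 32.9, 34.6 and 33.5 CPM, with -0.70 ± 0.0602 (edgeR adjusted p = 0.0268). Esd (chr14:74732151-74750765; an S-formylglutathione hydrolase) had 20.5, 27.7 and 28.8 CPM and 9.99, 18.2 and 10.1 CPM, with -1.0 ± 0.324 (edgeR adjusted p = 0.0413). Ipo5 (chr14:120896840-120948046; an importin of the nuclear pore pathway) had 222, 231 and 234 CPM and 151, 131 and 164 CPM, with -0.62 ± 0.0960 (edgeR adjusted p = 0.0420). In all 5 the E1 libraries lay above the E2 libraries, and the parental mean lay above both clones.

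The other 3 lower genes lie elsewhere. Klf9 (chr19:23141226-23168129; a zinc-finger transcription factor that responds to glucocorticoids) had 18.8, 17.6 and 18.3 CPM in E1 and 11.1, 8.80 and 9.54 in E2, with a log2 fold change of -0.89 ± 0.103 (edgeR adjusted p = 0.0192). Bcl2l15 (chr3:103831036-103854618; a Bcl2 family member) had 4.51, 6.41 and 6.15 CPM and 1.77, 0.838 and 1.67 CPM, with -1.95 ± 0.364 (edgeR adjusted p = 0.0429). It was the 1 lower gene whose parental mean, 0.249 CPM, lay below both clones. Oasl1 (chr5:114923143-114937911; a member of the oligoadenylate synthetase-like family, induced by interferon) had 6.93, 6.78 and 3.88 CPM and 0.937, 3.18 and 1.49 CPM, with -1.59 ± 0.562 (edgeR adjusted p = 0.0429). Its highest E2 library came close to its lowest E1 library.

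All 8 lower calls were lost without at least 1 library. Fermt2 missed the threshold without E1 replicate 2 alone, by little (adjusted p = 0.0502). Slc39a14 missed it when E1 replicate 2, E1 replicate 3, E2 replicate 1 or E2 replicate 2 was left out (up to 0.111), Klf9 without any but E2 replicate 1 (up to 0.108), Esd when E1 replicate 2, E1 replicate 3, E2 replicate 1 or E2 replicate 3 was left out (up to 0.267), and Oasl1 likewise for E1 replicates 1 and 2 and E2 replicates 1 and 3 (up to 0.255). Eaf1, Ipo5 and Bcl2l15 missed it without any one of the 6 libraries (up to 0.183, 0.199 and 0.228). With genes of at least 1 CPM in 3 libraries tested, Esd, Bcl2l15 and Oasl1 were no longer called.

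TGANTCA, where N is any base, was found in 1 of the 24 windows of called genes (0 of 17 higher, 1 of 7 lower). This is near the 4.24% of all RefSeq windows, which were not limited to tested genes. The match was in Klf9, and its sequence is given to show it. The window is the 150 bases chr19:23141076-23141225 on the plus strand, with the match in capitals.
Klf9: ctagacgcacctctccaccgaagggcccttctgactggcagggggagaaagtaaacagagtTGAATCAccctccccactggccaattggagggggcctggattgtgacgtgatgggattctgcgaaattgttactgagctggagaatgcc

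Genes of chromosome 14 were on balance lower in E2. Of its 413 tested genes 320 (77.5%) had a negative log2 fold change, against 49.3% of all tested genes, and the median was -0.26 (quartiles -0.49 and -0.04) against 0.00 over all. No gene of the chromosome was called higher in E2 by edgeR or by DESeq2, and 8 had an unadjusted edgeR p under 0.05 in that direction. In the lower direction 5 were called by edgeR and 16 by DESeq2, against 8 and 45 of the 12712 genes tested, and 92 had an unadjusted edgeR p under 0.05, against 512. The E2 libraries all lay below the E1 libraries in 109 of the genes (26.4%, against 7.76% of all genes tested) and all above in 8 (1.94%, against 7.36%). Among the 180 genes of at least 10 CPM the median was -0.28.

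Each E2 library showed the lower level. Taken as the median over the chromosome's genes of log2 CPM minus the parental mean, E1 replicates 1 to 3 stood at -0.50, -0.44 and -0.40 and E2 replicates at -0.80, -0.71 and -0.72. The clones did not overlap, and their means of -0.45 ± 0.050 and -0.74 ± 0.049 (SD, n = 3 each) differed by -0.29 ± 0.041 (SE). A 2-sided exact permutation test of 3 against 3 cannot go below p = 0.1, which is the value it gave here. It gave the same for all 9 chromosomes whose libraries did not overlap, so it does not set chromosome 14 apart. This chromosome was singled out after its values were seen. Clones A and M also lay below the parental level, at -0.36 to -0.29 and -0.36 to -0.33, so E2 was the lowest of the 5 populations and E1 the next. The same measure over all genes stayed between -0.01 and 0.03 in the 6 libraries.

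The lower level was spread over the windows of the chromosome that could be assessed. All 10 windows of 10 Mb with at least 10 tested genes had a negative median, from -0.37 to -0.09. Of these, 8 were the 8 lowest of 254 windows in the genome. The weakest, at 110 to 120 Mb (-0.09), ranked 44 from the lowest. Below 10 Mb and from 80 to 100 Mb no window had enough tested genes. With windows of 5 Mb, all 14 were negative and 6 were among the 8 lowest of 390. Examples outside the called genes, chosen after their values were seen, are Supt16 (a histone chaperone subunit), at 103 ± 6.85 CPM in E1 and 70.7 ± 5.23 in E2, and Vdac2 (a mitochondrial outer membrane channel), at 49.0 ± 4.93 and 32.7 ± 3.84. Ppp2r2a (a regulatory subunit of protein phosphatase 2A) had 39.9 ± 1.88 and 26.3 ± 2.32 CPM, and Elp3 (the catalytic subunit of Elongator) 20.1 ± 0.715 and 12.9 ± 1.53 (SD, n = 3 each). Their edgeR adjusted p lay between 0.0664 and 0.0995. The median of the chromosome stayed between -0.31 and -0.21 under all alternatives of the counts.

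**Figure D3:**
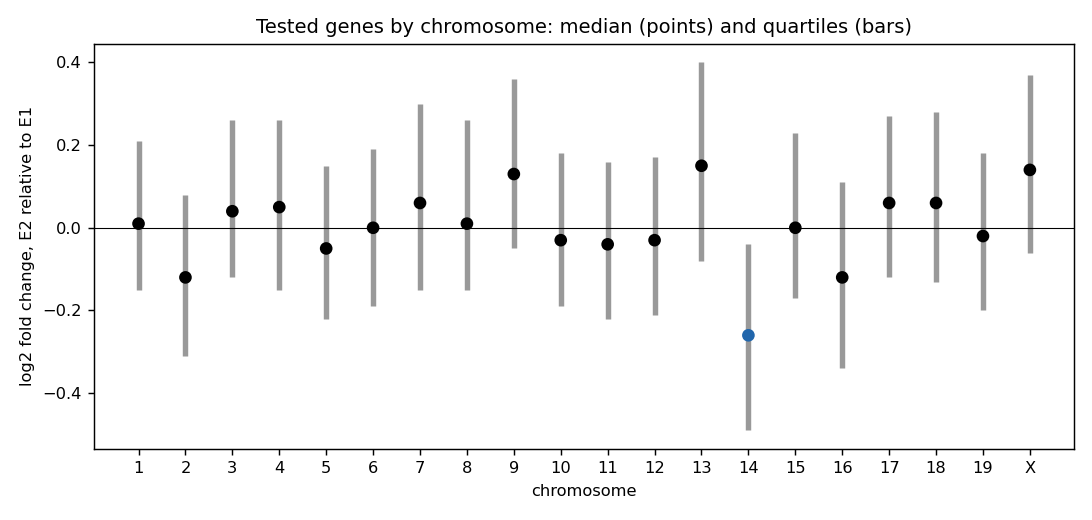
Log2 fold change of E2 relative to E1 (vertical axis) of the tested genes of each chromosome (horizontal axis), with a point for the median and a bar from the lower to the upper quartile. Chromosome 14 (blue point, median -0.26) has the lowest median, and those of chromosomes 13, X and 9 are 0.15, 0.14 and 0.13.

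Other chromosomes differed by less. The medians of chromosomes 2 and 16 were -0.12 each, and those of 13, X and 9 were 0.15, 0.14 and 0.13. On chromosome 9, E1 libraries stood at -0.36 to -0.31 relative to the parental mean and E2 libraries at -0.19 to -0.16. The clone means differed by 0.15 ± 0.018 (SE). Of its 718 tested genes 4 were called higher (Chst2, Vwa5a, Sema3b and Tmod2), against 22 of 12712 over all (0.173%). Chromosome 12, with a median of -0.03, also held 4 of the higher genes, among 438 tested. Of the 21 chromosomes, the mitochondrial one included, 9 had per-library medians that did not overlap between the clones. The called higher genes were spread over 11 chromosomes, and the 10 Mb window with the largest share of called genes was that of Trib2 and Cyria on chromosome 12, with 2 of 17 tested genes.

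**Figure D4:**
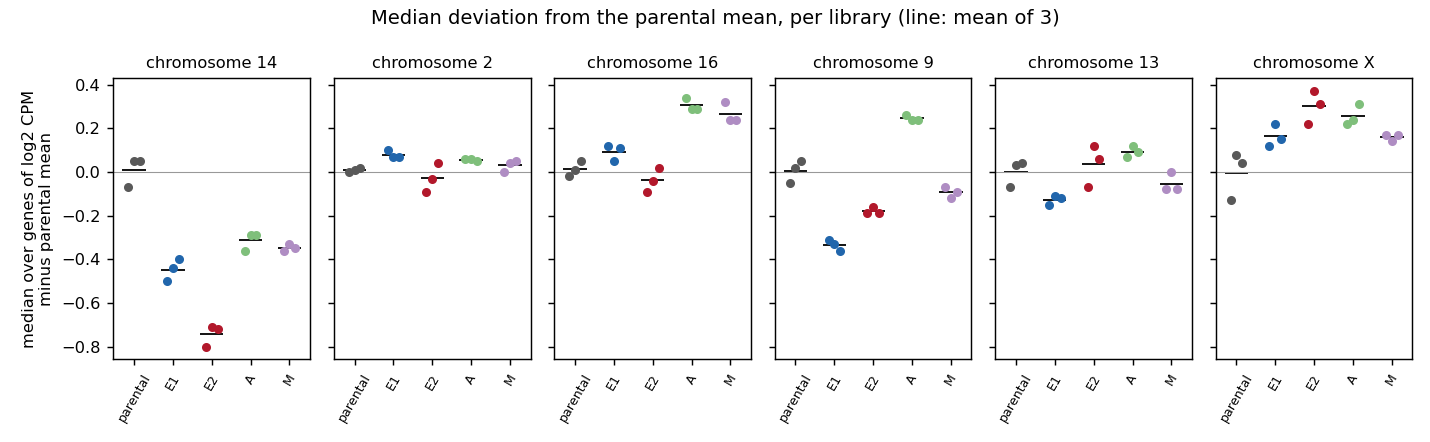
Median over the tested genes of a chromosome of log2 CPM minus the parental mean (vertical axis) for each of the 15 libraries, by population, for the 6 nuclear chromosomes with the largest difference between the clones, with a line for the mean of 3. E2 lies at -0.80 to -0.71 and E1 at -0.50 to -0.40 on chromosome 14, and on chromosome 9 both lie between -0.36 and -0.16 with E2 above E1.

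The other populations place the differences. Among the 22 genes higher in E2 the parental mean was nearer to E2 in 12 and nearer to E1 in 10, where it was nearer to E2 in 47.2% of all tested genes above E1 in E2. It lay between the clones in 14, above both in 6 and below both in 2. E1 had the lowest mean of the 5 populations in 16 of the 22, against 35.3% of all tested genes that were above E1 in E2. Clone A was above E1 in 21 and clone M in 17. Arrdc3 averaged 0.539 CPM in E1, 2.84 in E2, 7.25 in the parental population, 40.8 in A and 3.10 in M, and Gpc4 1.75, 10.4, 13.2, 23.6 and 16.2. E2 had the highest mean in 5 of the 22, Postn and Gbp2b among them. Of the 8 lower genes the parental mean was nearer to E1 in 7, against 53.1% of all tested genes below E1 in E2, and E2 was the lowest population in 5. No share over all tested genes is given for A or M above E1, or for E2 as the highest or lowest population. Since the called genes were picked for the contrast of E1 and E2, all counts given here are a description.

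Gene lists of pathways and cell states held few called genes: 5 of 41 lists had any. Postn was the called member of both the mesenchymal list and that of other matrix proteins. In the mesenchymal list 13 of 16 tested genes had a positive log2 fold change and 3 a negative one, against 50.6% positive of all genes tested. The median was 0.38 against 0.00 over all genes and stayed between 0.27 and 0.49 under all alternatives, but Postn alone was called. An unadjusted edgeR p under 0.05 was found for 4 higher and 0 lower members, against 4.81% and 4.03% of all. Vim (vimentin, an intermediate filament protein of mesenchymal cells) had 174, 235 and 224 CPM in E1 and 250, 364 and 458 in E2 and was not called (edgeR adjusted p = 0.410), and neither was Snai2 (a repressor of epithelial genes; log2 fold change 1.34, edgeR adjusted p = 0.486). The 17 tested collagens had a median of 0.32 with none called by edgeR, 5 genes with an unadjusted p under 0.05, all higher in E2 (4.81% of all genes tested), and 2 called higher by DESeq2, Col12a1 and Col18a1 (0.653% of all). Without E1 replicate 1 the collagen median was 0.13. Col12a1 had 10.7, 9.66 and 8.20 CPM in E1 and 17.7, 16.2 and 21.7 in E2 (edgeR adjusted p = 0.054). In the list of other matrix proteins (31 tested, median 0.17) Postn alone was called by edgeR, against 0.173% of all called higher. The median stayed between 0.03 and 0.37 under all alternatives. An unadjusted edgeR p under 0.05 was found for 4 higher and 1 lower member, against 4.81% and 4.03% of all. DESeq2 called 2 higher, Postn and Loxl3, against 0.653% of all. Loxl3, a lysyl oxidase that crosslinks matrix proteins, averaged 2.59 ± 0.723 CPM in E1 and 6.10 ± 2.57 in E2 (SD, n = 3 each). Its edgeR adjusted p was 0.054. The epithelial list stood at -0.10 with 0 of 45 called by edgeR and Cldn4 called lower by DESeq2 (0.354% of all genes tested). At an unadjusted edgeR p under 0.05, 2 of the 45 were higher and 4 lower, against 4.81% and 4.03% of all. The median of this list was -0.04 without E1 replicate 3, -0.05 without E2 replicate 2 and -0.16 without E2 replicate 1. Cell adhesion molecules (24 tested, median 0.17) had 0 called by edgeR. DESeq2 called 3 of them higher, Alcam, Bcam and Pcdh18, and 0 lower, against 0.653% and 0.354% of all.

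Immediate early and AP-1 genes, which respond within minutes to growth factors and handling, had the lowest median of the lists with at least 10 tested genes, -0.35, with 20 of 25 members negative, against 49.3% of all genes tested. None was called by edgeR, 7 were lower and 1 higher at an unadjusted p under 0.05, against 4.03% and 4.81% of all genes, and DESeq2 called Jun and Maff lower, against 0.354% of all. Jun (a subunit of AP-1) had 35.8, 37.6 and 26.6 CPM in E1 and 15.1, 17.8 and 21.2 in E2, and Maff (a small Maf protein) 15.6, 19 and 13 and 6.77, 10.0 and 7.17, each at an edgeR adjusted p of 0.081. Per library the list's median deviation was taken from the mean of the E1 and E2 libraries, not from the parental mean. It lay between 0.08 and 0.38 in E1 and between -0.29 and -0.09 in E2. The median of the list stayed between -0.42 and -0.24 under all alternatives.

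Interferon response genes had a median of 0.12 with 23 of 35 positive, against 50.6% of all genes tested. Oasl1, called lower, was the only member called by edgeR, against 0.0629% of all genes called lower. An unadjusted edgeR p under 0.05 was found for 6 higher and 3 lower members, against 4.81% and 4.03% of all. The median was 0.05 without E2 replicate 1 and 0.24 without E2 replicate 2. Irf7 and Gbp2 had log2 fold changes of 1.6 and 1.26 and Rsad2 -1.66, none of them called by edgeR. DESeq2 called Gbp2 higher and Oasl1 lower, against 0.653% and 0.354% of all. Axon guidance genes (31 tested) had a median of 0.23 with Sema3b alone called, higher, against 0.173% of all genes tested. The median was 0.37 without E2 replicate 2 and 0.13 without E2 replicate 3. In that list 6 genes were higher and 0 lower at an unadjusted edgeR p under 0.05, against 4.81% and 4.03% of all. In the Bcl2 family (16 tested) Bcl2l15 was called lower, against 0.0629% of all, and DESeq2 also called Bcl2 higher, against 0.653%. Of this family 1 gene was higher and 3 were lower at an unadjusted edgeR p under 0.05, against 4.81% and 4.03% of all. The hedgehog list, the pathway of Ptch1 and the Gli factors, had the highest median among lists with at least 10 tested genes, 0.39 over 10. None of its genes was called by either tool. At an unadjusted edgeR p under 0.05, 3 were higher, against 4.81% of all genes tested. No member of the proliferation list (44 tested) was called by either tool, and none reached an unadjusted edgeR p under 0.05. Of the cholesterol synthesis genes (33 tested, median 0.10) none was called by either tool. At an unadjusted edgeR p under 0.05, 4 were higher and 1 lower, against 4.81% and 4.03% of all genes tested. The median of this list was 0.00 without E1 replicate 1, 0.21 and 0.17 without E1 replicates 2 and 3, and 0.06 without E2 replicate 2. Ribosomal protein genes had a median of -0.14 with 55 of 75 negative, against 49.3% of all genes tested, and none was called by edgeR. At an unadjusted edgeR p under 0.05, 4 were lower, against 4.03% of all. DESeq2 called 2 of them lower, against 0.354% of all. Without E2 replicate 3 the median was -0.07, and many of these genes have near-identical copies. In RNA of whole cultures, fewer cells with a transcript and less of it per cell cannot be told apart.

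**Figure D5:**
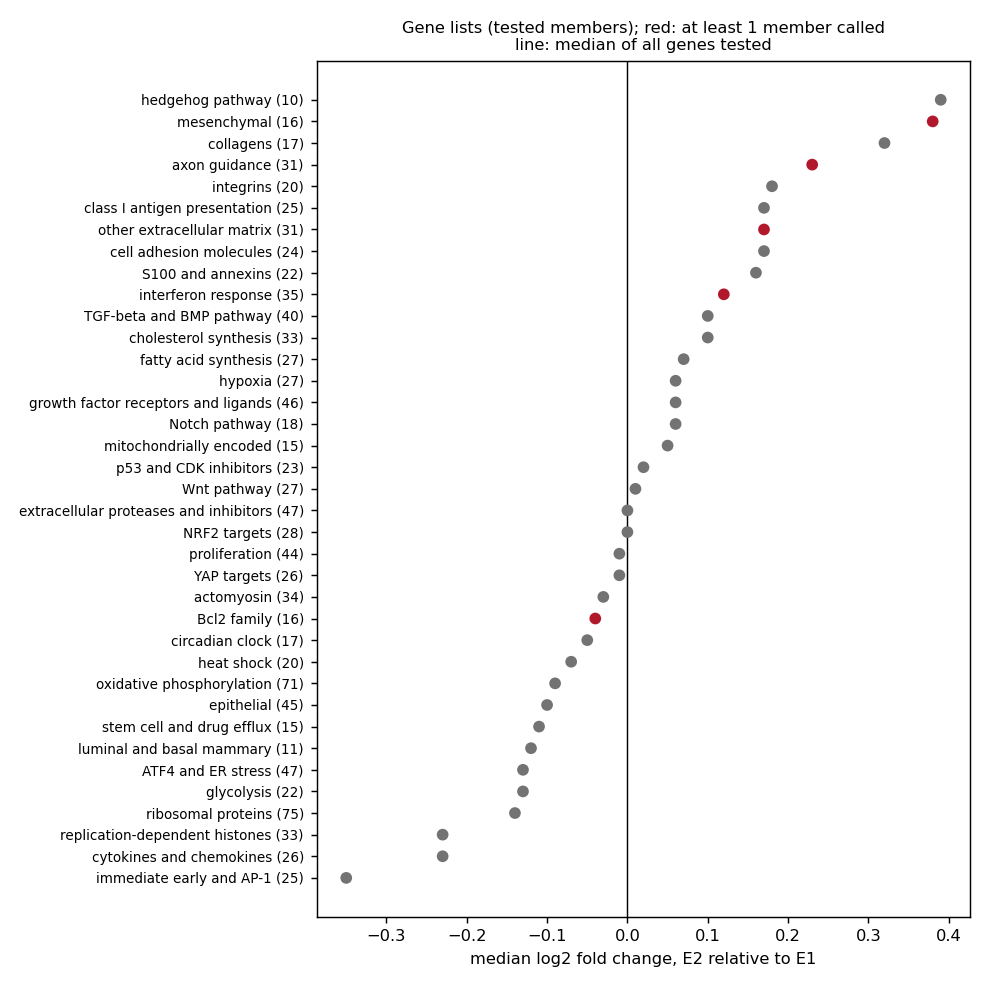
Median log2 fold change of E2 relative to E1 (horizontal axis) for each gene list with at least 10 tested genes (vertical axis, number of tested genes in brackets), with a line at the median of all genes tested, 0.00. Lists with a called member are red, and the medians run from -0.35 for immediate early and AP-1 genes to 0.39 for the hedgehog pathway.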

How the data were processed

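RNA of 15 libraries was sequenced after directional library preparation, per the labels. The deposited values are raw counts per gene, for which the submitters' processing notes name HISAT2, featureCounts and the builds GRCm38 and mm10. Versions and the strand setting of the counting are not given in the sources used here, so overlapping genes on opposite strands cannot be told apart. The deposited normalized, transformed and comparison tables were not used.

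Identifiers were joined to RefSeq genes (GRCm38.p6; 25275 of 27179 named, 18 more through GENCODE). Counts of all 15 libraries were fitted in R 4.3.3 with edgeR 4.0.16 (filterByExpr, minimum count 10 and total 15; TMM factors 0.847 to 1.11; robust quasi-likelihood test of E2 minus E1, population as the only term; prior count 2), and 12712 genes were tested, with a biological coefficient of variation of 0.255. The procedure was tested on simulated data. CPM use TMM-adjusted totals. The SE of a log2 fold change comes from the SD of log2 CPM, and SD, SE and floors (3 counts over a clone, 0.0348 CPM in E1) cover replicate spread or counting error only, since reads carry no molecular identifiers. P-values set a difference against the spread between libraries of the same population, estimated over all 15 libraries. That spread may be technical.

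Named genes were called genes of at least 3 CPM whose libraries did not overlap, up to 14 per direction, plus up to 4 called genes per list and in each of the 3 windows of 10 Mb with the largest share of calls. Genes, lists and rules were chosen with earlier results of these data known. Alternatives were RLE factors, no filter, at least 1 CPM in 3 libraries, DESeq2 1.42.0, the 6 libraries alone, the replicate number as a block, the 6 most abundant genes left out, the share of the most abundant gene as a covariate, a prior count of 0.5 and each library left out.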

Additional observations from a re-analysis of the deposited data

How the results depend on the processing

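The 30 calls (22 at 2-fold or more, 22 higher, 8 lower) became 128 (77, 89 and 39) with no filter, 128 (75, 83 and 45) with DESeq2 and 65 (34, 44 and 21) with the share of the most abundant gene as a covariate, each including all 30 genes. At least 1 CPM in 3 libraries left 27 calls, 5 of them lower. With both libraries of the highest share of that gene left out (E2 replicate 1 and parental replicate 1; chosen after seeing the data), 64 genes were called (35, 52 and 12), 25 of them among the 30. Leaving out 1 library of E1 or E2 gave 9 to 38 calls, 8 to 28 at 2-fold or more, 7 to 35 higher and 0 to 5 lower, and 24 of the 30 genes lost their call in at least 1 of these 6 fits. The replicate number as a block gave 68 calls (36, 43 and 25), with all 30 among them. Same-numbered E1 and E2 libraries correlated in their deviations at 0.116, 0.0655 and 0.0493, each best with its own number, which is a hint from the data and not from the design, so the numbers were not taken to pair libraries. RLE factors gave 39 calls and the 6 libraries alone 36, of which 21 were among the 30. Leaving out the 6 most abundant genes kept 30. A prior count of 0.5 also kept 30, but it enters the fold change and not the test, so its calls could not differ. No called gene changed direction under any of the 16 alternatives, which was largely fixed in advance, since the libraries of the clones did not overlap in any of the 30. For the changes in count the cause was not tested. Of the called genes, 7 were under 3 CPM in the higher clone and 3 had no count in E1, and their fold changes are limited by depth.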
